A study of Mus musculus with 6 samples.

Results

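Scavenger and phagocytic receptors are the surface proteins with which macrophages and related myeloid cells take up lipoproteins, dying cells, microbes and haemoglobin. The set described here holds 10 genes of the 46983 in the deposited tables: Marco, Msr1, Cd36, Scarb1, Scarb2, Mrc1, Clec7a, Cd163, Cd68 and Trem2. They were selected on function, as macrophage uptake receptors, around Marco, and Marco was chosen by its read counts, which were already known to be higher in the Psip1-KO samples analysed here. The level of Marco is therefore given as a description with no test. The other members, too, were chosen with earlier results of these data known.

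Messenger RNA was sequenced from myeloid colonies that lineage-depleted marrow progenitors of C57BL/6 mice, aged 8 to 11 weeks, formed in semi-solid culture. The medium contained the growth factors IL-3, IL-6 and mSCF, and colonies were taken after 6 to 7 days. Psip1-KO (KO below) has 3 samples and is written PsipVav/Vav in the series design, which the labels used here do not explain further. WT has 3 samples, is called wild type in its labels and carries 2 floxed alleles (PsipFl/Fl) in the design. Psip1 encodes LEDGF/p75, a chromatin reader that anchors MLL and menin at active genes, and the series title asks whether normal blood formation needs it. Nothing in the labels ties each replicate to its own animal, so p-values measure only the spread between these samples, part of which may be technical. Xist, transcribed from the inactive X of females, stood at 950.1 CPM in KO replicate 1 and 577 CPM in WT replicate 2, while the Y-linked gene Eif2s3y had 0 reads in both. Eif2s3y stood at 136.5 and 75.3 CPM in KO replicates 2 and 3 and at 78.04 CPM in WT replicate 1, with at most 1 Xist read in each, and had 4 reads in WT replicate 3. Both genotypes thus hold libraries of both sexes, from at least 2 animals each, and sex was not a term of the fit.

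The receptors work by different routes. Class A receptors such as MARCO and MSR1 form trimers with a collagen-like stalk and bind bacteria and modified lipoproteins, whereas class B receptors such as CD36 and SR-B1 cross the membrane at both ends and bind lipids and lipoproteins. The mannose receptor and dectin-1 are lectins that recognise sugars of microbes. TREM2 binds lipids and signals through the adaptor DAP12, and CD163 clears haemoglobin bound to haptoglobin. In bone marrow several of these genes, though not all, mark monocytes, macrophages and, for some, dendritic cells and other myeloid cells.

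The 5 deep libraries held 7056614 to 15569088 reads on genes, and WT replicate 3 held 27909, so that the shallowest deep library was 253 times deeper. In WT replicate 3, 1 read was worth 29.8 normalised CPM (reads after TMM scaling for depth), and no reads allowed up to 3 reads or 89.4 CPM. That library is therefore given as reads, and the intervals given for genes with reads there are exact Poisson ones, while it stays in the fit over all 6 libraries. Intervals and floors cover counting error only. Mitochondrial genes took 15.7% of gene reads in KO replicate 2 and 9.52% in WT replicate 3, against 1.26% to 1.84% in the other libraries. Psip1 stood at 14.8, 17.5 and 16.3 CPM in KO replicates 1, 2 and 3 and at 89.1 and 69.8 CPM in WT replicates 1 and 2, with 3 reads in WT replicate 3 (log2 fold change -2.32, SE 0.32, adjusted p = 0.0599 by edgeR's quasi-likelihood test with Benjamini-Hochberg adjustment). The myeloid genes S100a8, S100a9, Mpo and Lyz2 were abundant. The 4 B cell markers summed to 0.658 to 5.26 CPM in KO and 1.95 and 8.99 CPM in deep WT (Ms4a1 at 0), and the 5 T and NK cell markers to 11.1 to 72.7 CPM in KO and 20.3 and 145 CPM in deep WT, mostly Nkg7 (Cd3e and Cd3g at 0).

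The 10 receptors together took 0.176%, 0.169% and 0.200% of gene reads in KO replicates 1, 2 and 3. In WT replicates 1 and 2 they took 0.160% and 0.133%, and in WT replicate 3 they took 0.125% (35 reads, 95% Wilson interval 0.0902% to 0.174%). The summed share was thus higher in each KO library than in both deep WT libraries, while the interval of WT replicate 3 reached above the share of KO replicate 2. In RNA from whole colonies, fewer cells of a type and less RNA per cell cannot be told apart.

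Marco, Msr1, Mrc1 and Clec7a were the members that stood higher in all 3 KO libraries than in both deep WT libraries. Besides Marco, which was chosen for this, they were 3 of the 8 members that passed the low-count filter, against 4.79% of all 12292 genes tested. Because the members were chosen with earlier results of these data known, this contrast is a description only. With WT replicate 3 added by its point value the count was again 3, against 3.79% of all genes. Without KO replicate 1, 2 or 3 it was 4, 3 or 4, against 9.1%, 6.83% or 13.2% of all genes, and without WT replicate 1 or 2 it was 5 or 3, against 26.8% or 24.3%. No member stood lower in all 3 KO libraries than in both deep WT libraries, against 3.87% of all genes. By edgeR's quasi-likelihood test 0 of the 8 passed an adjusted p of 0.05 and 0 had an unadjusted p under 0.05, and 0 of all genes tested passed (0%). DESeq2 and limma-voom also called 0 of the members, with 0 and 1 (Msr1) under an unadjusted p of 0.05. By edgeR that number was 1 (Clec7a) without WT replicate 1 and 1 (Mrc1) without WT replicate 2. Since they did not overlap between the genotypes, the 4 genes were also higher in KO replicate 1 than in WT replicate 2, the libraries with Xist, and in KO replicates 2 and 3 than in WT replicate 1. That order was fixed by the non-overlap itself, and the part of sex was not tested.

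**Figure D1:**
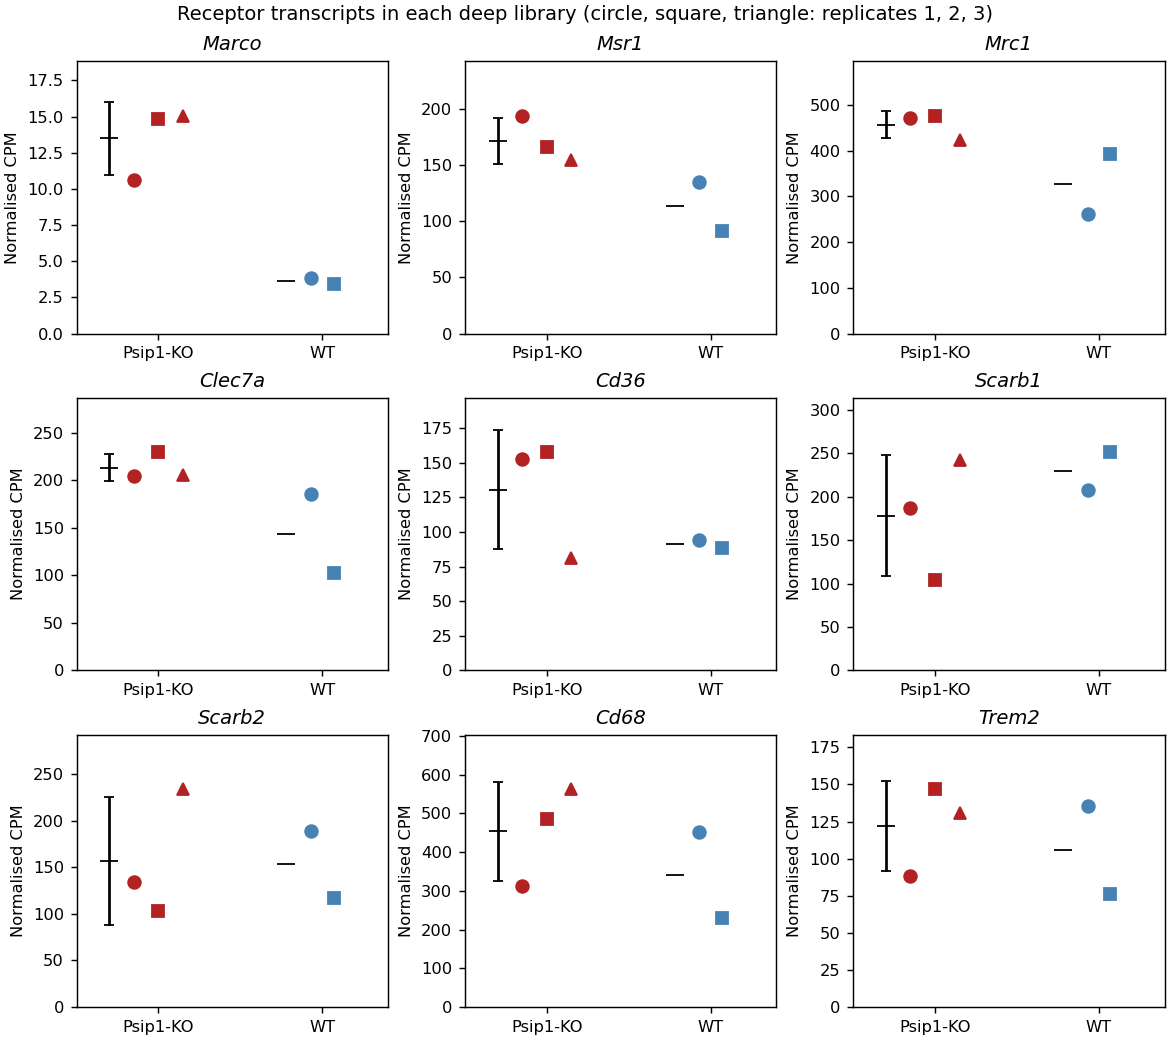
Normalised CPM (linear vertical axes from 0) of 9 receptors in the 3 Psip1-KO libraries (red) and the 2 deep WT libraries (blue). Black marks are the mean, with the SD for KO (n = 3). Marco, Msr1, Mrc1 and Clec7a lie higher in every KO library than in both WT libraries, and the groups overlap for the other 5 genes shown.

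Marco (ENSMUSG00000026390.7, minus strand of chromosome 1, 120474538 to 120505024, GRCm38) encodes a class A receptor of certain tissue macrophages that binds bacteria and particles. It held 135, 94 and 229 reads in KO replicates 1, 2 and 3 and 53, 35 and 0 reads in WT replicates 1, 2 and 3. On the normalised scale these were 10.6, 14.8 and 15.1 CPM in KO, and 3.84 and 3.42 CPM in the deep WT libraries. KO libraries averaged 13.5 ± 2.52 CPM (SD, n = 3), 3.72 times the mean of 3.63 CPM in the deep WT libraries, and the lowest KO library lay well above the highest of these WT libraries. The fitted log2 fold change was 1.91, on the contrast by which Marco was chosen. In WT replicate 3 the 0 reads allow a level above that of any KO library, so Marco was not detectable there at this depth.

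Msr1 (ENSMUSG00000025044.15, minus strand of chromosome 8, 39581685 to 39642673), the macrophage scavenger receptor for modified lipoproteins, stood at 194, 166 and 155 CPM in KO replicates 1, 2 and 3 and at 135 and 91.7 CPM in WT replicates 1 and 2. WT replicate 3 held 5 reads, or 149 CPM (95% interval 48.4 to 348 CPM). The KO values lay above both deep WT values and inside the interval of WT replicate 3. The log2 fold change was 0.54 (SE 0.34), with adjusted p = 1.00 by edgeR.

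The C-type lectin genes showed a similar arrangement. Mrc1 (ENSMUSG00000026712.3, plus strand of chromosome 2, 14229392 to 14332057) encodes the mannose receptor CD206. It stood at 472, 476 and 422 CPM in KO replicates 1, 2 and 3 and at 260.5 and 392 CPM in WT replicates 1 and 2. WT replicate 3 held 5 reads, and the upper end of its 95% interval, 348 CPM, lay below all 3 KO values. The separation from the deep WT libraries rested on a narrow gap between KO replicate 3 and WT replicate 2. The log2 fold change was 0.66 (SE 0.37), with adjusted p = 1.00 by edgeR.

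Clec7a (ENSMUSG00000079293.11, minus strand of chromosome 6, 129461591 to 129472779) encodes dectin-1, the receptor for fungal beta-glucans. GENCODE release M21 classes the gene as a polymorphic pseudogene. It stood at 204, 229 and 206 CPM in KO replicates 1, 2 and 3 and at 186 and 102 CPM in WT replicates 1 and 2, with 3 reads in WT replicate 3. The KO libraries lay close together, and the separation from WT rested on a narrow gap to WT replicate 1. The log2 fold change was 0.65 (SE 0.36), with adjusted p = 1.00 by edgeR.

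The 250 bases before the start of Marco, Mrc1 and Clec7a are shown because these genes stood higher in every KO library than in the deep WT libraries. They come from RefSeq (GRCm38.p6), run 5′ to 3′ on the strand of the gene, and carry in capitals each match to GAGGAA, the core bound by PU.1 and related ETS factors, on either strand. Msr1, the other gene of this pattern, had no entry. Starts are those of RefSeq and can differ from the gene coordinates given above. The Mrc1 window thus ends at 14229413, inside the gene that begins at 14229392. Clec7a has a further window, 129472786 to 129473035, which also holds GAGGAA and is not shown.
Marco, chr1:120505025-120505274, minus strand: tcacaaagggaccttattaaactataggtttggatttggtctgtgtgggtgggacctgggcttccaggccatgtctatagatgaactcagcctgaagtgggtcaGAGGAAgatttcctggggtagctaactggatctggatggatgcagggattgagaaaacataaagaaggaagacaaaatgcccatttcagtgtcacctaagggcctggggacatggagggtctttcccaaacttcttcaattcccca
Mrc1, chr2:14229164-14229413, plus strand: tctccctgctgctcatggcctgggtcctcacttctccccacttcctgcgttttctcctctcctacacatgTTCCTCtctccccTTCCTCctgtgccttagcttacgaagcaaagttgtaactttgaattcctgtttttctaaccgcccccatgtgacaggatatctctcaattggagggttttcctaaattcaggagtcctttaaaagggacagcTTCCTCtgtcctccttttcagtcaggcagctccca
Clec7a, chr6:129472780-129473029, minus strand: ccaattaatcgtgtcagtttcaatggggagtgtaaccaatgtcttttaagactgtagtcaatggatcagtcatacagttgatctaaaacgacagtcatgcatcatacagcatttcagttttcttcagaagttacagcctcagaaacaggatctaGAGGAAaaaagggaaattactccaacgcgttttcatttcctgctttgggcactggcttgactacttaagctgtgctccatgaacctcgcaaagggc

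GAGGAA was found in the windows of 5 of the 8 members with a window, Marco, Mrc1, Clec7a, Cd68 and Trem2, and in 23.3% of 32817 windows of the same length. TGANTCA, with any base at N, is looser than the AP-1 motif, which has C or G there. It was found in those of Cd68, as TGAGTCA, and Trem2, as TGAATCA, which is not the AP-1 motif (6.75% of all windows). The share of windows with the stricter motif was not counted. TGCTGA, part of the MAF motif, was found in those of Cd36 and Scarb2 (16.1% of all windows). TTGCNNAA, a C/EBP motif, was found in that of Cd68 (9.57% of all windows), and the E-box CACGTG in none of the 8 (6.02% of all windows). A match describes these letters and is not a measured site of binding.

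The class B genes did not separate by genotype. Cd36 (ENSMUSG00000002944.15, minus strand of chromosome 5, 17781690 to 17888801), a receptor for fatty acids and oxidised lipoproteins that platelets and endothelium also carry, stood at 153, 158 and 81.1 CPM in KO replicates 1, 2 and 3 and at 93.9 and 88.2 CPM in WT replicates 1 and 2. KO replicates 1 and 2 were high and KO replicate 3 was the lowest of the 5 deep libraries, so the groups overlapped (log2 fold change 0.57, SE 0.37, adjusted p = 1.00 by edgeR). WT replicate 3 held 2 Cd36 reads.

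Scarb1 (ENSMUSG00000037936.15, minus strand of chromosome 5, 125277087 to 125341094), which encodes the HDL receptor SR-B1, was at 188, 104 and 242 CPM in KO replicates 1, 2 and 3 and at 208 and 251 CPM in WT replicates 1 and 2. It was the 1 tested member with a negative log2 fold change (-0.20, SE 0.41, adjusted p = 1.00 by edgeR). The lowest value was that of KO replicate 2. The log2 fold change was 0.085 without KO replicate 2 and 0.035 without WT replicate 2.

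Scarb2 (ENSMUSG00000029426.8, minus strand of chromosome 5, 92441314 to 92506833), which encodes the lysosomal membrane protein LIMP-2, was at 134, 103 and 234 CPM in KO replicates 1, 2 and 3 and at 189 and 118 CPM in WT replicates 1 and 2 (log2 fold change 0.13, SE 0.41, adjusted p = 1.00 by edgeR). The libraries differed more within each group than the group means differed, and the sign turned without KO replicate 3 (-0.26). WT replicate 3 held 3 reads each of Scarb1 and Scarb2.

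Cd68 (ENSMUSG00000018774.13, minus strand of chromosome 11, 69664213 to 69666153), the endosomal glycoprotein macrosialin used as a macrophage marker, stood at 314, 485 and 563 CPM in KO replicates 1, 2 and 3 and at 452 and 229.9 CPM in WT replicates 1 and 2. WT replicate 3 held 13 reads, the most of any member in that library, or 387 CPM (95% interval 206 to 662 CPM). The groups overlapped (log2 fold change 0.37, SE 0.39, adjusted p = 1.00 by edgeR).

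Cd163 (ENSMUSG00000008845.9, plus strand of chromosome 6, 124304656 to 124330527), the haemoglobin scavenger receptor, was close to silent in these colonies. It held 0 reads in each KO library, and 0, 2 and 0 reads in WT replicates 1, 2 and 3. It did not pass the low-count filter and was not tested.

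Trem2 (ENSMUSG00000023992.14, plus strand of chromosome 17, 48346401 to 48354147), the lipid-sensing receptor of microglia and other macrophages, was at 88.3, 147 and 131 CPM in KO replicates 1, 2 and 3 and at 136 and 75.8 CPM in WT replicates 1 and 2. WT replicate 3 held 1 read. The spread within each genotype was as wide as the spread between them (log2 fold change 0.33, SE 0.40, adjusted p = 1.00 by edgeR).

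Across the 8 tested members other than Marco, 7 log2 fold changes were positive and 1 was negative, and their median was 0.45. These values leaned on single libraries. Without WT replicate 2 and without WT replicate 1 they were 0.31 and 0.79 for Msr1, 0.42 and 1.15 for Clec7a, 0.097 and 0.74 for Cd68, and 0.12 and 0.87 for Trem2. Mrc1 ran from 0.48 without WT replicate 3 to 1.03 without WT replicate 2, and Cd36 from 0.42 without KO replicate 2 to 0.85 without KO replicate 3. Among all genes tested 52% had a positive value, and the median was 0.01. The highest of the 5 deep libraries was 1.83 times the lowest for Mrc1 and up to 2.45 times for Cd68, with Marco apart at 4.41 times.

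Library to library, the members did not move as 1 block. Of the deep WT libraries, replicate 1 was higher for Msr1, Clec7a, Scarb2, Cd68 and Trem2 and by little for Marco and Cd36, and replicate 2 for Mrc1 and Scarb1. Among the KO libraries, replicate 3 was highest for Scarb1, Scarb2 and Cd68, highest by little for Marco, and lowest for Msr1, Mrc1 and Cd36. The macrophage genes Csf1r and Adgre1 varied in the manner of Scarb2: Csf1r stood at 158, 168 and 441 CPM in KO replicates 1, 2 and 3 against 484 CPM in WT replicate 1 and 132 CPM in WT replicate 2. Adgre1 stood at 175, 169 and 415 CPM in the KO libraries and at 365 and 108 CPM in the deep WT libraries.

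The 8 macrophage markers summed to 3651 to 11375 CPM in the KO libraries and 4513 to 11718 CPM in the deep WT libraries, mostly from Lyz2. Without Lyz2 the other 7 summed to 399 to 910.1 CPM in KO and 384 to 919 CPM in WT. None of the 8 was higher in every KO library than in both deep WT libraries, 1 (C1qa) was lower in all 3, and none was at 0. Of all genes tested 4.79% were higher and 3.87% lower by these counts. Of 4 monocyte markers 0 were higher and 2, Ly6c2 and F13a1, were lower by the same count, with sums of 307 to 530.2 CPM in KO and 584 to 754 CPM in WT. The 8 dendritic cell markers, of which 1 (Cd209a) was at 0, summed to 405 to 683 CPM in KO and 323 to 444 CPM in WT, with 1 (Itgax) higher in each KO library. The part of these cell types in the receptor levels was not tested.

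Per kilobase of exon, where levels of different genes can be set side by side, Cd68 was the highest member, at a mean of 325 CPM per kb over the 5 deep libraries. Clec7a and Mrc1 followed at 70.3 and 63.5 CPM per kb, with overlapping ranges, and Mrc1 was higher than Cd36, the next gene, in 5 of 5 libraries. Cd36, Scarb2, Msr1, Scarb1 and Trem2 lay between 32.0 and 23.3 CPM per kb and each overlapped its neighbour, so their order is not fixed by these data. Marco was lower than all of these in each deep library, with 7.01 ± 1.31 CPM per kb in KO (SD, n = 3) and 1.88 CPM per kb in the deep WT libraries. Cd163 was last, at 0.0072 CPM per kb over the 5 libraries.

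**Figure D2:**
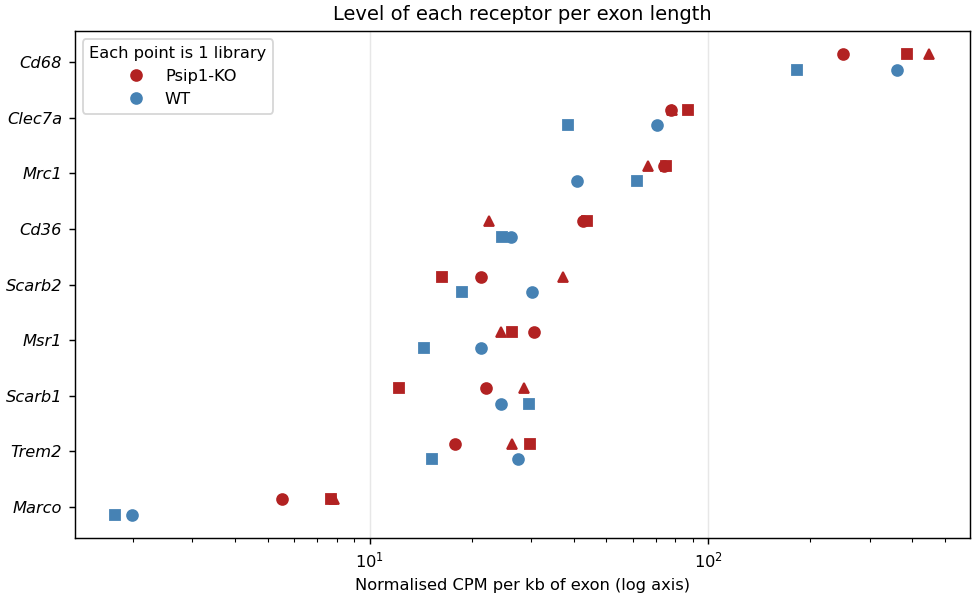
Normalised CPM per kb of exon (logarithmic horizontal axis) of the 9 receptors that passed the low-count filter, 1 point per deep library, with KO in red above WT in blue and circles, squares and triangles for replicates 1, 2 and 3. Cd68 and Marco stand apart at the top and bottom of the order, while Cd36, Scarb2, Msr1, Scarb1 and Trem2 share 1 range.

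The wider uptake pathway was followed with 79 other genes, of which 69 passed the filter. By edgeR 0 passed an adjusted p of 0.05 in either direction, and 3 had an unadjusted p under 0.05, all 3 higher in KO. Without WT replicate 1 it was 16 of 69, and 740 of 12535 over all genes, against 178 of 12292 with all libraries. In the fit over all libraries, of all genes tested 1.24% were higher and 0.212% lower at that level. The filter asks for enough reads in 3 libraries, and WT replicate 3 is shallow. A scarce gene therefore passes more easily when it is high in KO, so these shares are not on equal terms. How far the filter shaped them was not tested. DESeq2 and limma-voom also called 0 of the other uptake genes, with 0 and 1 under that unadjusted p. The log2 fold change was positive for 48 and negative for 21, and the median was 0.17. The count higher in every KO library than in both deep WT libraries was 7 of 69, against the 4.79% of all genes given above. The lysosomal cholesterol carrier gene Npc2, named after its values were seen, was the 1 gene lower in all 3, against 3.87% of all genes. The 7 higher genes were Scarf2, Adgrb1, Rxra, Tyrobp and Fcer1g, and, named after their values were seen, Itgax and Cd300lf. Scarf2 and Adgrb1, also among the 3 with an unadjusted p under 0.05, passed the filter through their KO libraries. Both counts are therefore a description only.

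The 3 genes of lowest p on the higher side were Scarf2, a class F scavenger receptor (1.65, 2.21 and 1.84 CPM in KO, 0.652 and 0.195 CPM in deep WT, log2 fold change 2.08, SE 0.64), Rxra, the nuclear receptor that pairs with PPAR and LXR (log2 fold change 0.85, SE 0.34), and Adgrb1, the phosphatidylserine receptor BAI1 (1.50, SE 0.66). Scarf2 and Adgrb1 were scarce transcripts. In replicates 1, 2 and 3 Scarf2 held 21, 14 and 28 reads in KO and 9, 2 and 0 reads in WT. Adgrb1 held 40, 15 and 19 reads in KO and 6, 12 and 0 reads in WT. Both passed the low-count filter through the KO libraries, where they were high, so their places here are a description only. Rxra stood at 71.9, 75.0 and 98.5 CPM in KO and 51.4 and 37.4 CPM in deep WT. On the lower side the 3 lowest p belonged to Cxcl16, a membrane-bound chemokine that also acts as a scavenger receptor (-1.19, SE 0.63), Apoe, a lipid carrier that TREM2 can bind (-0.68, SE 0.43), and the complement receptor gene C5ar1 (-0.33, SE 0.34). Each of these 6 had an adjusted p = 1.00 by edgeR. For Cxcl16 the higher WT level came from WT replicate 1, at 17.5 CPM, with WT replicate 2 at 4.10 CPM.

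Other receptors had values on both sides of 0. The apoptotic cell receptor genes Mertk and Axl had log2 fold changes of 0.57 (SE 0.47; 0.030 without WT replicate 2, 1.63 without WT replicate 1) and 0.14 (SE 0.53), and the complement receptor subunits Itgam and Itgb2 had 0.35 (SE 0.38) and 0.36 (SE 0.55). The scavenger receptor genes Colec12 and Stab1 stood at 0.90 (SE 0.79) and 0.14 (SE 0.51). Clec4n, which encodes the fungal receptor dectin-2, was at 0.76 (SE 0.64), with 0.13 without KO replicate 3 and 2.20 without WT replicate 1. Clec4e, which encodes mincle, was at -0.43 (SE 0.74). Clec4e ran from 96.1 to 431 CPM within KO, against 645 CPM in WT replicate 1 and 74.2 CPM in WT replicate 2, so that libraries of 1 genotype differed more than the genotypes did. Timd4, Vsig4, Havcr1, Scara3 and Cd209a, named after their values were seen, had 0 reads in all 6 libraries.

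The adaptor gene through which TREM2 signals was abundant. Tyrobp, which encodes DAP12, stood at 964, 984 and 1005 CPM in KO and 896 and 779 CPM in deep WT (log2 fold change 0.32, SE 0.34). Fcer1g, the Fc receptor gamma chain used by dectin-2 and mincle, was at 0.22 (SE 0.36), the kinase gene Syk at 0.34 (SE 0.47), and Card9, which links dectin-1 to NF-kappaB, at 0.33 (SE 0.43).

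Among regulators, Pparg, which drives Cd36, was at a log2 fold change of 0.16 (SE 0.32), and Nr1h3, which encodes LXR alpha, at 0.33 (SE 0.50). Spi1, which encodes PU.1, stood at 365, 261 and 379 CPM in KO and 367 and 421 CPM in deep WT (0.01, SE 0.40), and its sign turned with scaling by library size only (-0.043). The lipid genes Abca1, a cholesterol exporter, and Lpl, lipoprotein lipase, were at -0.74 (SE 0.99) and 0.26 (SE 0.51). None of these passed the test.

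**Figure D3:**
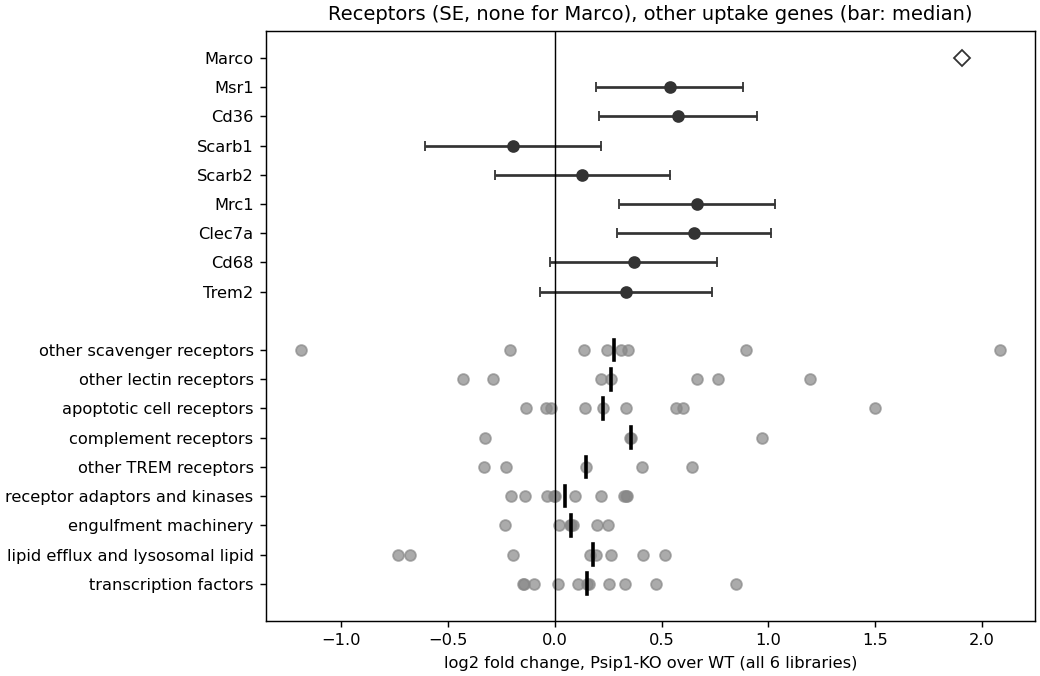
log2 fold change of Psip1-KO over WT (horizontal axis) from the fit over all 6 libraries, for the receptors with their SE (Marco, open diamond, is a description with no SE or test) and below them for the other uptake genes by role, with 1 point per tested gene and a bar at each group's median. Of the receptors Scarb1 alone lies below 0, and the medians of the 9 roles lie between 0.05 and 0.35.

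The genes whose profile over the 5 deep libraries was closest to that of Marco were sought among 9830 named genes with a mean of at least 5 CPM, by the root mean square difference of log2(CPM + 0.5) after centring. They were Ccnd1, which encodes cyclin D1 (0.18), Sfmbt2, an imprinted Polycomb-related gene (0.19), Arnt2, a bHLH-PAS transcription factor gene (0.23), Ctsk, the cathepsin K gene of osteoclasts (0.28), and Tchh, which encodes trichohyalin (0.32). Ccnd1 stood at 19.1, 30.3 and 33.7 CPM in KO and 6.66 and 8.40 CPM in deep WT. Ctsk stood at 66.7, 89.8 and 75.6 CPM in KO and 30.5 and 33.8 CPM in deep WT. Because Marco was chosen for its higher level in KO, genes most like it must be higher there too, and these values describe the profile only.

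None of the other 8 members compared was among these. The nearest of the 8 was Clec7a, with a difference of 0.61 at rank 104, followed by Msr1 (0.63, rank 128), Mrc1 (0.68, rank 240) and Cd68 (0.70, rank 290). Trem2 and Cd36 stood at ranks 852 and 861, Scarb2 at 5301 and Scarb1 at 9101.

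**Figure D4:**
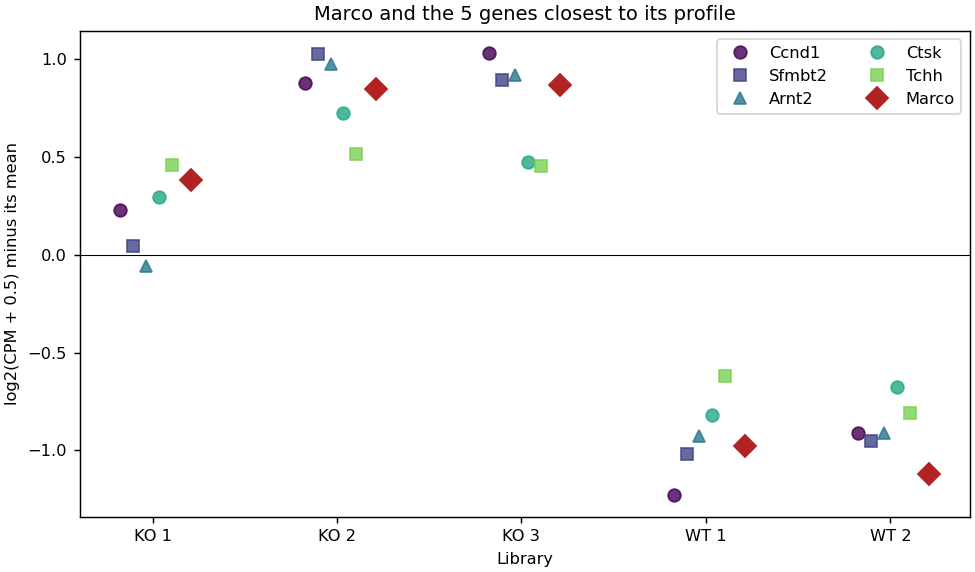
Centred log2(CPM + 0.5) (vertical axis) of Marco and the 5 genes closest to it in the 3 KO and 2 deep WT libraries (horizontal axis), 1 marker style per gene. Marco lies above its mean in all 3 KO libraries and below it in both WT libraries, as the other genes do except Arnt2, which is slightly below its mean in KO replicate 1.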

How the data were processed

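Libraries from polyA RNA were made with the TruSeq Stranded mRNA kit, per the labels' protocols. The authors deposited raw counts of reads for each gene in 7 files, 2 of them runs of WT replicate 3, in the layout of STAR's gene counter. The submitters' processing notes name STAR 2.5.1b, GRCm38 and, without a role, DESeq2. No annotation release was found in the sources used here. Column 4, which counts the strand this kit reports, was used. It held 95.6% to 97.5% of stranded gene reads. The 4 rows that name no gene held 25.6% to 47.8% of reads and were left out. Of 46983 genes 46488 were matched by identifier to symbols. Multimapping reads are not counted.

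The runs of WT replicate 3 were summed. After filterByExpr and TMM scaling, edgeR 4.0.16 tested genes (robust glmQLFit, then a two-sided glmQLFTest) on genotype alone in all 6 libraries, with Benjamini-Hochberg adjustment over 12292 genes and a threshold of 0.05. The SE is the log2 fold change over the root of F. Alternatives used DESeq2 1.42.0, limma 3.58.1 (voom) and edgeR with other settings. CPM per kb used exon lengths of GENCODE M21 (GRCm38). The members and gene lists were chosen with earlier results of these data known. Named were the 10 members, Psip1, 17 other uptake genes listed beforehand (a further listed gene is not reported here), the 3 others of lowest p per direction, and the 5 genes most like Marco. Marker genes, Xist, Eif2s3y, Itgax, Cd300lf, Npc2 and genes with 0 reads were named after their values were seen.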

Additional observations from a re-analysis of the deposited data

How the results depend on the processing

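Depth limits WT replicate 3 most, where no member held more than 13 reads, so comparisons rest on 2 deep WT libraries. The number of members called stayed at 0 under all 15 alternatives, as did that of the other uptake genes. The number of all genes called was 0, and it was 2 with scaling by library size only, 9 without a filter, 1 with DESeq2, 13 with the replicate number as a block, 12 with DESeq2 and WT replicate 3 left out (a setting chosen after seeing the data), and 0 to 5 when each library was left out in turn. The cause was not tested. DESeq2 with all libraries had a median log2 fold change over genes of -0.32, and edgeR without WT replicate 1 had 0.13, against 0.01. The members other than Marco that were higher in every KO library numbered 3 with WT replicate 3 included by point value (3.79% of all genes) and 3 to 5 when each deep library was left out, with 5 (26.8% of all genes) without WT replicate 1. Those settings too were chosen after seeing the data. Same-numbered libraries did not deviate together, and the numbers were not taken as pairs. Correlations of their deviations from the group means over 6329 genes were -0.28, -0.12 and -0.24 for numbers 1, 2 and 3. Differently numbered libraries ran from -0.27 (WT 1 with KO 2) to 0.47 (WT 1 with KO 3). The WT means include the shallow WT replicate 3, so its noise enters every WT deviation. These values are therefore a weak guide to pairing. The block changed no call of a member. Psip1 was called lower without a filter (-2.28), with the replicate block (-2.33) and with DESeq2 and WT replicate 3 left out (-2.32).

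Of 33 named genes 12 changed sign at least once, and for no member other than Scarb1 and Scarb2. Leaving out each library gave log2 fold changes of -0.46 to 0.085 for Scarb1 (0.035 without WT replicate 2), -0.26 to 0.55 for Scarb2 (-0.041 without WT replicate 2), -0.45 to 1.44 for Axl, -0.045 to 0.95 for Itgb2, -0.082 to 3.01 for Colec12, -0.39 to 0.91 for Stab1 (-0.26 without KO replicate 2), -1.22 to 1.46 for Clec4e, -0.23 to 0.26 for Spi1 (-0.037 without KO replicate 1 and -0.058 without KO replicate 3), -0.18 to 0.92 for Nr1h3, -1.93 to 2.51 for Abca1, -0.15 to 0.83 for Lpl and -1.88 to 0.059 for Cxcl16. Of genes that kept their sign, those that moved by over 1.5-fold when a library was left out ran from 0.042 (without WT replicate 3) to 0.92 (WT 1) for Syk, 0.13 (WT 3) to 0.82 (WT 2) for Card9, 0.18 (KO 2) to 0.62 (KO 3) for Itgam, 0.046 (KO 2) to 0.37 (KO 3) for Fcer1g, 0.23 (WT 3) to 0.49 (WT 1) for Tyrobp, 0.12 (KO 3) to 0.28 (WT 2) for Pparg, 1.52 (WT 2) to 3.24 (WT 1) for Scarf2, 0.99 (WT 1) to 2.34 (WT 2) for Adgrb1, -1.02 (WT 2) to -0.42 (WT 1) for Apoe and -0.52 (KO 3) to -0.18 (KO 2) for C5ar1, beside those in the report. Limma-voom gave -0.0012 for Scarb2 and -0.20 for Spi1. Scaling by library size only gave -0.043 for Spi1, and DESeq2 with WT replicate 3 left out -0.055 for Itgb2 and -0.24 for Spi1.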
